A study of Mus musculus with 6 samples.

Results

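The genes described here are 7 helix-loop-helix (HLH) factors that hold back myogenic transcription: the 4 Id genes (Id1, Id2, Id3 and Id4), musculin (Msc) and the repressor pair Bhlhe40 and Bhlhe41. They were taken by gene symbol from the 27179 genes of each of 2 comparison tables, and all 7 were present and tested in both. RNA sequencing was done on C2C12 cells, an immortalised mouse myoblast line that fuses into myotubes when serum is lowered. Every group had been kept for 48 h in differentiation medium with horse serum and added insulin, and every group carried a stably transfected shRNA construct. The groups were a BAF250A shRNA, a BRD9 shRNA and a non-targeting scrambled shRNA, with 2 libraries each that the series calls biological duplicates. The labels name 1 construct per target and do not say whether a line was 1 clone or a pool. Arid1a encodes BAF250A, a subunit found in BAF, and BRD9 is found in the non-canonical complex ncBAF; both complexes are SWI/SNF remodellers of chromatin. The title of the series asks which of these complexes skeletal muscle differentiation requires.

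Basic HLH (bHLH) activators of muscle genes, such as MyoD and myogenin, bind DNA at the E-box CANNTG as pairs with E proteins. Id proteins have the HLH region but lack the basic region that touches DNA, so an E protein held by an Id protein cannot pair with a myogenic factor. Id genes are well-known targets of BMP signalling through SMAD proteins, and BMP is known to hold back myoblast differentiation. Musculin, also called MyoR, binds E-boxes with E proteins and acts as a repressor in myoblasts. Bhlhe40 (Dec1) and Bhlhe41 (Dec2) repress transcription, belong to the circadian clock circuit, respond to low oxygen, and have been described as inhibitors of MyoD.

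Promoter sequence was examined first, because the Id genes are classic targets of both E-box factors and SMADs. RefSeq promoters (GRCm38.p6, from 250 bases before the start to 50 after) were at hand for 4 of the 7 genes: Id2, Id3, Id4 and Bhlhe41. Those of Id2 and Id3, the 2 Id genes that changed in the results below, are printed 5′ to 3′ on the gene's own strand. Capitals mark GGCGCC, which SMAD1 and SMAD5 are known to bind, and any E-box CANNTG. Both motifs read the same on either strand.
Id2 promoter, chr12:25096043-25096342, minus strand: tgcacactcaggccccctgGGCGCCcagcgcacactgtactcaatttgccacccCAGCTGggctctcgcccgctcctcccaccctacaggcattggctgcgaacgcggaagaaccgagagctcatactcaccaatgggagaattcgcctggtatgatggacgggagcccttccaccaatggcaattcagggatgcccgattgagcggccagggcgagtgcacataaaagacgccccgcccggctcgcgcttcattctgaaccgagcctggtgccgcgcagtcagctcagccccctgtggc
Id3 promoter, chr4:136143572-136143871, plus strand: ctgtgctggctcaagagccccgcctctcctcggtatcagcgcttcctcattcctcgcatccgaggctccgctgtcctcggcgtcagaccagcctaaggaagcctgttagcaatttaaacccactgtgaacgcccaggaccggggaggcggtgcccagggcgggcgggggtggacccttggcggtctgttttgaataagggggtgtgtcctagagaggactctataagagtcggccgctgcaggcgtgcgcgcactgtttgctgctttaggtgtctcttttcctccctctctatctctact
The Id2 window held 1 GGCGCC, which began 231 bases before the start, and 1 E-box with the letters CAGCTG. The Id3 window held neither motif. Id4 had 1 GGCGCC and no E-box, and Bhlhe41 had no GGCGCC and 4 E-boxes, among them the CACGTG form that clock factors bind. Among all 32851 promoters of this length, 11.9% held GGCGCC, 72.3% held CANNTG, 16.3% held CAGCTG and 7.15% held CACGTG. The last pair are forms of the E-box, and no GGCGCC overlapped an E-box in the printed windows. A match only describes these letters in this window.

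The members lie on 6 chromosomes, with positions from RefSeq on GRCm38. Id1 lies at chr2:152736251-152737410 on the plus strand, Id2 at chr12:25093799-25096092 on the minus strand and Id3 at chr4:136143822-136145392 on the plus strand. Id4 lies at chr13:48261116-48266028 on the plus strand and Msc at chr1:14753344-14756089 on the minus strand. Bhlhe40 lies at chr6:108660629-108666925 on the plus strand and Bhlhe41 at chr6:145858243-145865420 on the minus strand. Of the 31-base words in its exons, Msc shared 20.5% with other annotated genes, mainly with Gm9947, which is transcribed from the opposite strand of the same locus. Bhlhe41 shared 17.7%, mainly with the opposite-strand Gm43909, and each of the other members shared 3.12% or less. No source used here states whether reads were counted by strand, so reads from Msc or Bhlhe41 and from these partners cannot be told apart.

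The deposited tables hold a mean normalized count per gene over 4 libraries. Since that mean is a sum of whole reads weighted by each library's size factor, the reads of each library could be worked out for the members and 13 other genes. In each group, library 1 is the one with the larger size factor; which of the labels' letters A and B it carries is unknown. Size factors, which largely follow sequencing depth, were 0.801 and 0.773 for the BAF250A knockdown libraries, 0.841 and 0.782 for the BRD9 knockdown libraries, and between 1.07 and 1.58 for the scrambled libraries. Total reads per library were not analysed here. Both tables used the same 2 scrambled libraries, scaled separately, so scrambled values differ slightly between the tables and the 2 comparisons are not independent. Reads also had an uneven parity: among low genes with 1 to 10 reads, odd counts made up 18.6% to 23.7% in the knockdown libraries, against 41.9% to 42.6% in the scrambled libraries. This counting difference follows the groups exactly, and its part in any result cannot be told apart from the knockdown. The labels do not say how the duplicate cultures were separated, so p-values can speak only for these libraries. They rest on the dispersion (modelled spread) that the authors' fit gave each gene, which need not equal the spread of its own duplicates.

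The targeted genes were lower in their own knockdown. Arid1a had normalized counts of 1365 and 1072 in BAF250A knockdown cells, against 6536 and 3250 in scrambled cells, and its log2 fold change in the authors' deposited table was -1.95 ± 0.48 (SE; adjusted p = 0.000381, DESeq2 Wald test). Brd9 had 197 and 403 in BRD9 knockdown cells, against 852 and 1055 in scrambled cells, with -1.60 ± 0.54 in the authors' deposited table (adjusted p = 0.0252, Wald test). In a refit that left out scrambled library 1 and held the authors' dispersions, the Arid1a change was -1.36 and did not pass; it passed without any 1 of the other 3 libraries. Brd9 passed without BRD9 knockdown library 2 alone: it was -1.16 without BRD9 knockdown library 1, -1.70 without scrambled library 1 and -1.41 without scrambled library 2, and did not pass in these 3 fits. Neither gene was called in the other knockdown.

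Of the 7 inhibitors, 3 rose and 1 fell with BAF250A knockdown: Id2, Id3 and Bhlhe40 rose, Msc fell, and Id1, Id4 and Bhlhe41 did not pass the test. A gene was called when its adjusted p was below 0.05 (the authors' deposited table, DESeq2 Wald test, Benjamini-Hochberg adjustment over all genes tested). The 4 called members stand against 28.7% called among the 16450 genes tested, with 11.2% higher and 17.5% lower. With BRD9 knockdown, Id2 rose, Msc fell and the other 5 did not pass, against 14.4% called among 17198 genes, with 5.11% higher and 9.33% lower. The median log2 fold change of the 7 members in the authors' deposited tables was 1.12 with BAF250A and 0.54 with BRD9. Over all genes tested it was -0.18 and -0.15. Each member median is the value of 1 uncalled gene, the barely detected Id4 for BAF250A and Bhlhe41 for BRD9, and does not show a shared rise. Centring each table on the median of its genes changed no member's call or direction. Wald scores of all genes were spread more widely than a normal null, with a scaled median absolute deviation of 2.18 for BAF250A and 1.58 for BRD9. Scaled to that spread, Msc with BAF250A was the 1 member call left, and Bonferroni adjustment left 3 calls with BAF250A and 0 with BRD9.

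**Figure D1:**
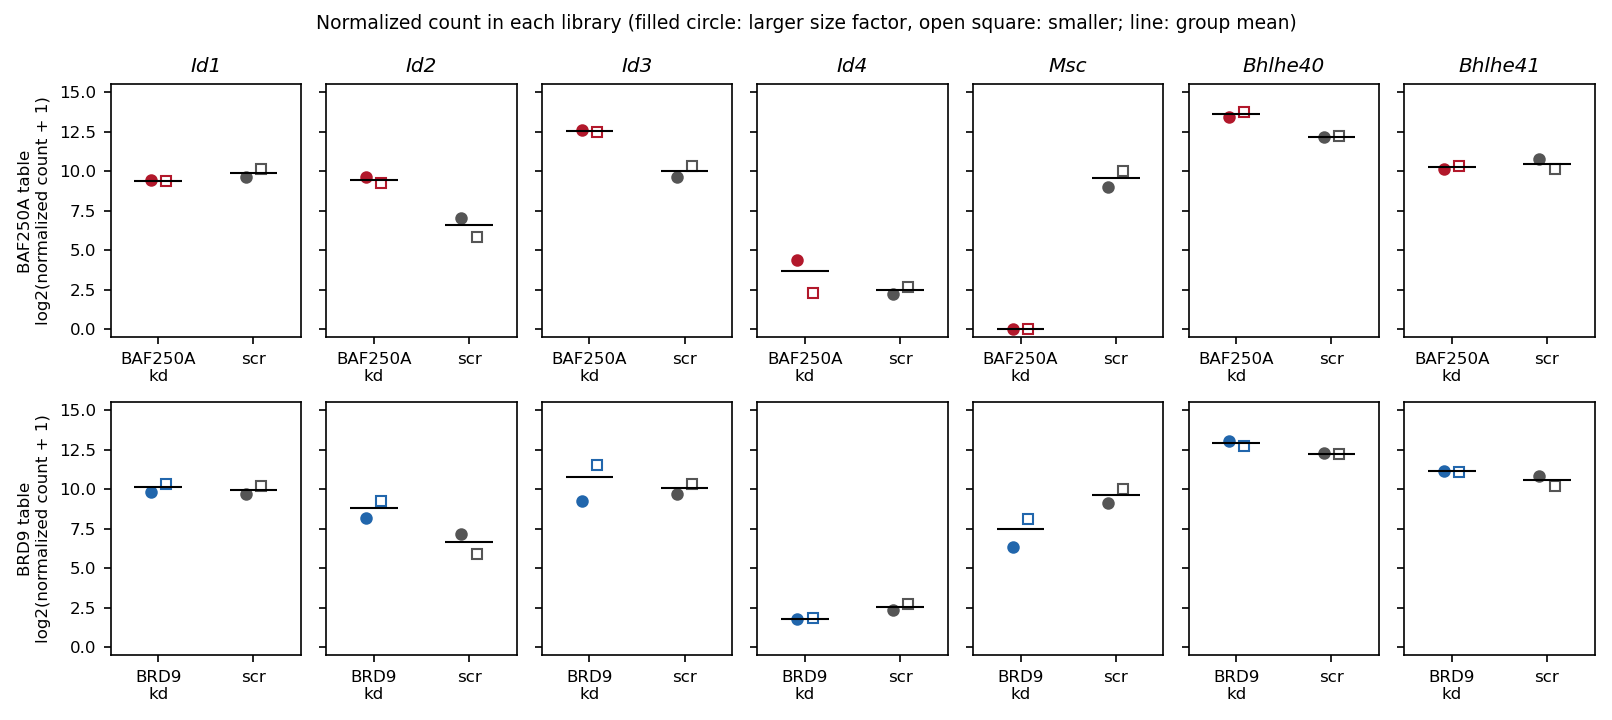
Normalized count of each inhibitor in every library, as log2(normalized count + 1), in the BAF250A table (top row) and the BRD9 table (bottom row); in each panel knockdown libraries are on the left and scrambled libraries on the right, and lines are group means. Msc lies at 0 in both BAF250A knockdown libraries, and Id2 lies above the scrambled libraries in both knockdowns.

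Id2, which is known to hold back muscle and other differentiation programmes by binding E proteins, was higher in both knockdowns. Normalized counts were 791 and 618 in BAF250A knockdown libraries 1 and 2, against 131 and 57.6 in the scrambled libraries. The groups did not overlap, and the means of 705 ± 122 and 94.5 ± 52.2 (SD, n = 2 each) were 7.46-fold apart. Lack of overlap only describes 2 against 2 libraries, and its share over all genes is unknown. It also held for Id4 and Bhlhe41 with BRD9, which were not called. In the authors' deposited table the log2 fold change was 2.81 ± 0.52 (SE; adjusted p = 1.05e-06, Wald test). With BRD9 knockdown the counts were 288 and 598, against 140 and 59.0 in scrambled cells, a 4.45-fold difference of the means without overlap. The authors' deposited table gives 2.03 ± 0.61 (adjusted p = 0.00872, Wald test). The scrambled libraries themselves differed 2.38-fold for Id2, and they rest on 207 and 63 reads. The BRD9 call depended on single libraries: without BRD9 library 2 the log2 fold change was 1.41 and without scrambled library 2 it was 1.52, and neither passed the p-value that a call needs in that table.

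Id3, another E protein binder and a known BMP target, was high in BAF250A knockdown cells. Its normalized counts were 6322 and 5690 there, against 787 and 1278 in scrambled cells, with no overlap. The means of 6006 ± 448 and 1033 ± 347 (SD, n = 2 each) were 5.82-fold apart, and the authors' deposited table gives a log2 fold change of 2.48 ± 0.45 (adjusted p = 4.53e-07, Wald test). The BRD9 knockdown libraries disagreed. Library 1 had 599 and library 2 had 2894, one below and one above the scrambled values of 839 and 1309. The log2 fold change in the authors' deposited table was 0.66 ± 0.64 (adjusted p = 0.589, Wald test). It was 1.30 without BRD9 library 1 and -0.76 without BRD9 library 2, so its direction rested on 1 library.

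Id1, the member first described as an inhibitor of MyoD and like Id3 a known BMP target, did not pass the test in either comparison. It had 698 and 673 normalized counts in BAF250A knockdown cells, against 785 and 1146 in scrambled cells, which lie just above without overlap. The authors' deposited table gives a log2 fold change of -0.48 ± 0.45, with a 95% interval of -1.37 to 0.40 (adjusted p = 0.458, Wald test). The counts of 910 and 1291 in BRD9 knockdown cells overlapped the 837 and 1174 of scrambled cells, and the authors' deposited table gives 0.13 ± 0.51 (adjusted p = 0.918, Wald test). Id4, the Id gene best known from the nervous system, was barely detected: 16 and 3 reads in BAF250A knockdown libraries, 2 and 2 in BRD9 knockdown libraries, and 6 and 6 in scrambled libraries. No difference in Id4 was detectable at this depth, with 95% intervals in the authors' deposited tables of -1.18 to 3.43 for BAF250A and -3.13 to 1.91 for BRD9.

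Msc was the member with the widest change. No read was counted in either BAF250A knockdown library, whereas the scrambled libraries held 824 and 1123 reads, or 523 and 1027 normalized counts. Taking 3 reads over the knockdown group as the floor, Msc was at least 407-fold lower. The bound depends on that floor. Only 23.7% and 18.8% of low counts were odd in these knockdown libraries, so a floor set in single reads may be too low. The log2 fold change of -9.42 ± 1.08 in the authors' deposited table (adjusted p = 9.65e-17, Wald test) depends on the fit's prior for a group at 0 and is not a bound. With BRD9 knockdown Msc had 66 and 215 reads, or 78.5 and 275 normalized counts, against 558 and 1051 in scrambled cells. The groups did not overlap and the means were 4.55-fold apart, with -2.06 ± 0.63 in the authors' deposited table (adjusted p = 0.00991, Wald test). This call too rested on single libraries: the log2 fold change was -1.42 without BRD9 library 1 and -1.52 without scrambled library 2, which did not pass, and -3.05 without BRD9 library 2, which did.

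Bhlhe40, a repressor of the clock and hypoxia circuits, was the most abundant member in reads. Its normalized counts were 11338 and 14144 in BAF250A knockdown cells, against 4592 and 4736 in scrambled cells, where the duplicates lay within 1.03-fold of each other. The means were 2.73-fold apart without overlap, and the log2 fold change in the authors' deposited table was 1.42 ± 0.42 (adjusted p = 0.00438, Wald test). Without BAF250A library 2 it was 1.24 and just missed the p-value that a call needs. In BRD9 knockdown cells Bhlhe40 had 8546 and 6888, against 4897 and 4850 in scrambled cells. These groups did not overlap either, but the log2 fold change of 0.64 ± 0.47 in the authors' deposited table did not pass (adjusted p = 0.439, Wald test). Its paralog Bhlhe41 had 1147 and 1301 in BAF250A knockdown cells, against 1724 and 1150 in scrambled cells, which overlapped. Bhlhe41 had 2247 and 2206 in BRD9 knockdown cells, against 1839 and 1178 in scrambled cells. The authors' deposited tables give log2 fold changes of -0.23 ± 0.45 with BAF250A (adjusted p = 0.753, Wald test) and 0.54 ± 0.50 with BRD9 (adjusted p = 0.555, Wald test).

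**Figure D2:**
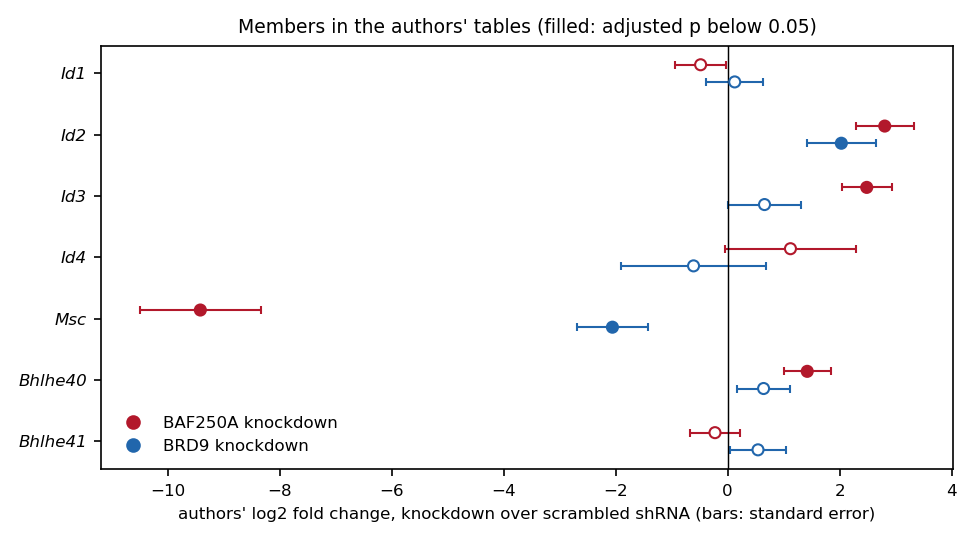
Log2 fold change, knockdown over scrambled shRNA, of the 7 inhibitors in the authors' deposited tables, with standard errors as bars, BAF250A knockdown above BRD9 knockdown; filled points have an adjusted p below 0.05. Id2 is filled and positive and Msc filled and negative in both comparisons, whereas Id3 and Bhlhe40 are filled for BAF250A only.

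Levels between genes were compared per kilobase of merged exons (GENCODE M21), as group means of normalized counts. In BAF250A knockdown cells the order was Id3 at 3353, Bhlhe40 at 2708, Id1 at 591, Id2 at 289, Bhlhe41 at 182, Id4 at 3.10 and Msc at 0 normalized counts per kilobase. In scrambled cells of that table it was Bhlhe40 at 991, Id1 at 832, Id3 at 577, Msc at 304, Bhlhe41 at 214, Id2 at 38.8 and Id4 at 1.21. Id3 thus stood first in BAF250A knockdown cells and below Bhlhe40 and Id1 in scrambled cells, and Msc was last in the knockdown. In BRD9 knockdown cells Bhlhe40 stood first at 1640, followed by Id3 at 975 and Id1 at 949, and the Id3 libraries there lay on both sides of those of Id1 in normalized count. Neighbours in these orders were not tested against each other.

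The 2 knockdowns were then compared with each other through the difference of their deposited log2 fold changes, BAF250A minus BRD9. Among members, Msc alone differed, by -7.36 ± 1.25 (SE; adjusted p = 1.44e-06, normal test, Benjamini-Hochberg adjustment over 16311 genes), against 2.54% of genes called in this test and 1.99% called lower with BAF250A. The direction for Msc does not rest on the fitted value. At the floor chosen above, the count was at least 407-fold lower with BAF250A, and it was 4.55-fold lower with BRD9. Id3 differed by 1.83 ± 0.78, with a 95% interval of 0.29 to 3.37, and did not pass adjustment (adjusted p = 0.349, normal test). The shared scrambled libraries cancel in this difference, so the summed variance is too large. With it halved, the adjusted p of Id3 was 0.0174 (normal test). Halving keeps the modelled dispersion. The BRD9 knockdown libraries, which do not cancel, lay far apart for Id3, at 599 and 2894 normalized counts. For Id2 the difference was 0.78, with an interval of -0.80 to 2.35, and for Bhlhe40 0.78, with an interval of -0.46 to 2.03. A larger response of these 2 genes to BAF250A knockdown was therefore not shown, and neither was an equal one. Id1, Id4 and Bhlhe41 had differences of -0.61, 1.73 and -0.77, each with an adjusted p of 1.00.

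**Figure D3:**
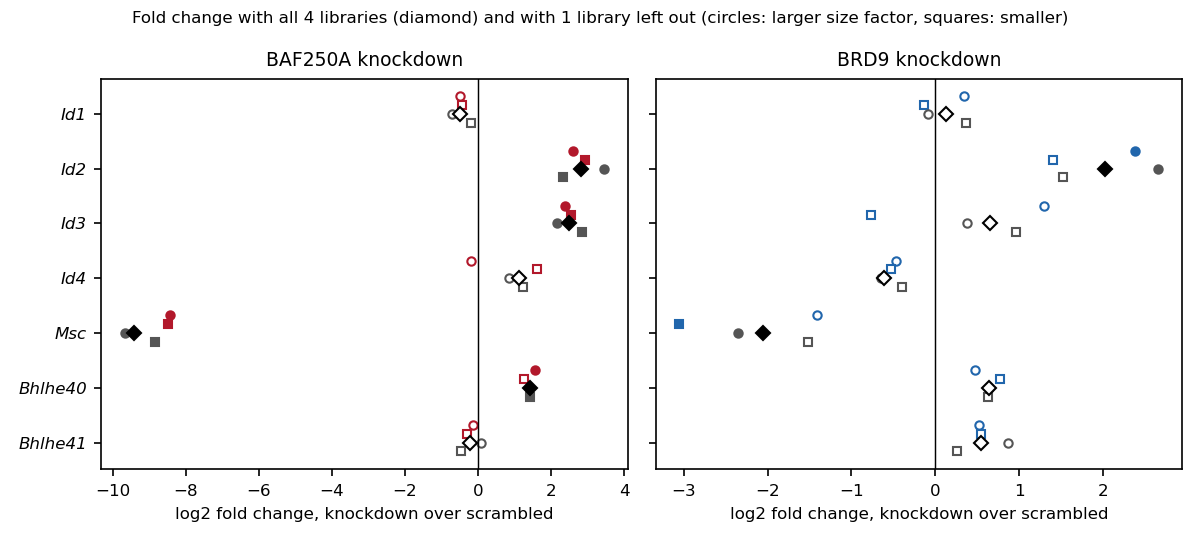
Log2 fold change, knockdown over scrambled shRNA, of each inhibitor with all 4 libraries (diamonds) and with 1 library left out, coloured when the one left out was a knockdown library and grey when it was scrambled; circles mark library 1, squares library 2, and filled symbols pass the call. For BAF250A, Id2, Id3 and Msc stay filled throughout; for BRD9, Id2 and Msc each lose the call in 2 of the 4 cases, and Id3 lies on either side of 0.

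The partners that these inhibitors act on were examined next, beginning with the 4 myogenic bHLH activators. With BAF250A knockdown 3 of 4 fell and none rose, and with BRD9 knockdown 1 fell and 1 rose. Over all genes tested, 17.5% fell and 11.2% rose with BAF250A, and 9.33% fell and 5.11% rose with BRD9. Myf5, a determination factor of myoblasts, had 459 and 510 normalized counts in BAF250A knockdown cells, against 2804 and 802 in scrambled cells. It had 656 and 371 in BRD9 knockdown cells, against 2990 and 821 in scrambled cells of that table. Both knockdowns lay below both scrambled libraries, which differed 3.50-fold in the BAF250A table. The authors' deposited tables give log2 fold changes of -1.83 ± 0.56 with BAF250A (adjusted p = 0.00588, Wald test) and -1.78 ± 0.62 with BRD9 (adjusted p = 0.0304, Wald test). Both calls rest on scrambled library 1, without which the Myf5 change was -0.69 with BAF250A and -0.62 with BRD9 and did not pass; with BRD9 it also did not pass without BRD9 knockdown library 2 (-1.41). Myod1, which encodes MyoD, had 8100 and 8917 in BAF250A knockdown cells, against 2912 and 5637 in scrambled cells, and its log2 fold change of 0.97 ± 0.47 in the authors' deposited table did not pass (adjusted p = 0.106, Wald test). Myod1 rose in BRD9 knockdown cells, with 11305 and 18366 against 3105 and 5772 in scrambled cells and 1.67 ± 0.53 in the authors' deposited table (adjusted p = 0.0142, Wald test). That call was lost without BRD9 knockdown library 2 (1.27) and without scrambled library 1 (1.28). Myf6, a late factor of muscle fibres, fell with BAF250A, with 17.5 and 12.9 against 92.7 and 98.7 in scrambled cells. It had 59.4 and 25.6 in BRD9 knockdown cells, which also lay below the scrambled 98.8 and 101 but did not pass (adjusted p = 0.295 in the authors' deposited table, Wald test).

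Myog, which encodes myogenin, was too abundant for its reads to be worked out. Its log2 fold change in the authors' deposited tables was -1.94 ± 0.53 with BAF250A (adjusted p = 0.00156, Wald test) and 0.83 ± 0.57 with BRD9 (adjusted p = 0.394, Wald test), and the difference of -2.77 between them passed (adjusted p = 0.0182, normal test). Of the 3 E proteins, the common partners of Id and myogenic factors, 1 rose with BAF250A and none was called with BRD9. With BRD9 no E protein had an unadjusted p below 0.05 in the Wald test (0 of 3). The shares called over all genes tested were 28.7% with BAF250A (11.2% higher) and 14.4% with BRD9 (5.11% higher). Tcf12, which encodes HEB, had 5859 and 5854 in BAF250A knockdown cells, against 3367 and 974 in scrambled cells, with 1.38 ± 0.55 in the authors' deposited table (adjusted p = 0.0422, Wald test). The Tcf12 call was lost in 3 of 4 fits that left out 1 library, at 1.36 without either BAF250A knockdown library and 0.76 without scrambled library 2. In BRD9 knockdown cells it had 5632 and 5035, against 3591 and 998 in scrambled cells. The 1.15 ± 0.59 of the authors' deposited table did not pass (adjusted p = 0.213, Wald test). Without scrambled library 1 this change was 2.23, and the Tcf12 difference of 0.23 between the knockdowns did not pass. Tcf3, which encodes E2A, had 6379 and 6758 in BAF250A knockdown cells, against 4393 and 6275 in scrambled cells, and 6745 and 9787 in BRD9 knockdown cells, against 4685 and 6426. Tcf4, which encodes E2-2, had 4428 and 4173 in BAF250A knockdown cells, against 4529 and 2095 in scrambled cells, and 2315 and 2017 in BRD9 knockdown cells, against 4830 and 2145. Neither Tcf3 nor Tcf4 passed in either comparison.

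Muscle genes known to depend on E-boxes fell in 13 of 15 tested with BAF250A and rose in none, against 17.5% lower among all genes tested. Their median log2 fold change was -2.17 in the authors' deposited table. The steepest were Ckm (muscle creatine kinase) at -5.24, Mymk (the fusion protein myomaker) at -4.86, Myh3 (embryonic myosin) at -4.38 and Tnni1 (slow troponin I) at -3.64, all from the authors' deposited table. With BRD9 the authors' deposited table calls 0 of 16 by the Wald test, while 3 had an unadjusted p below 0.05, all higher, and the median was 0.07. Ckm, Mymk, Myh3 and Tnni1 each differed between the knockdowns, by -4.66, -4.82, -4.79 and -3.26 on the log2 scale (adjusted p of 2.44e-06, 8.76e-08, 1.49e-09 and 0.00410, normal test).

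**Figure D4:**
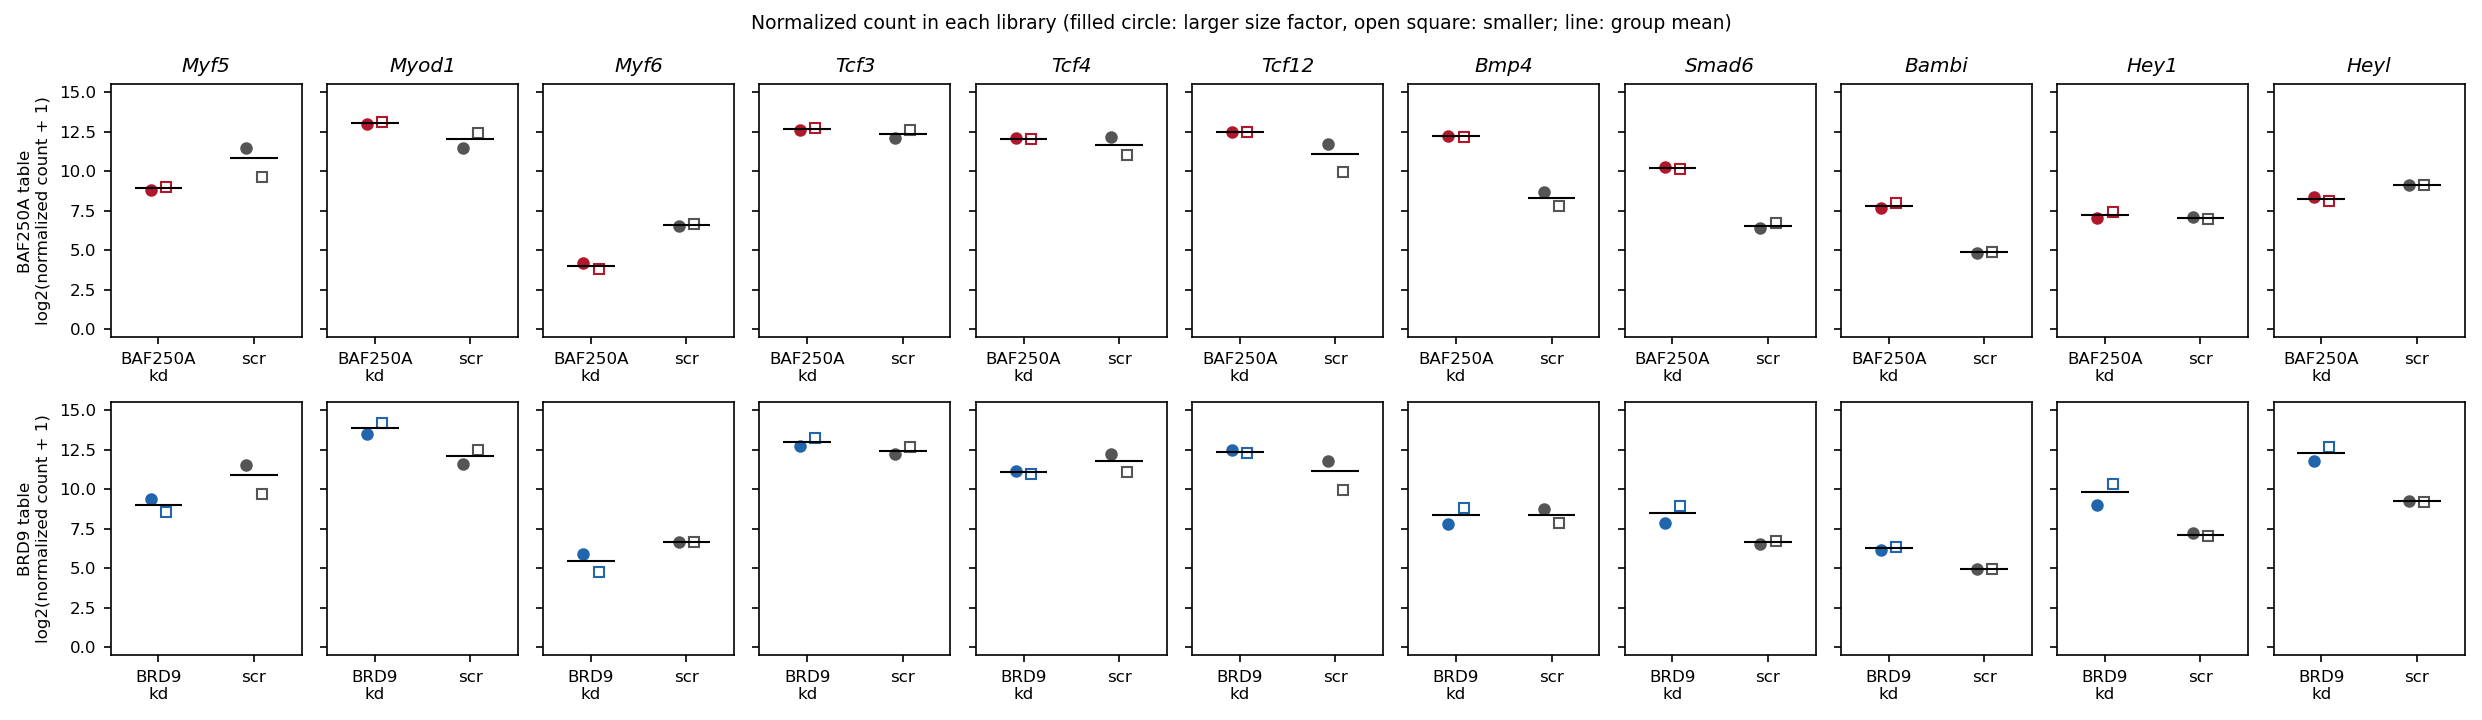
Normalized count of 3 myogenic activators, the 3 E proteins and 5 genes of the BMP and Hey lists in every library, as log2(normalized count + 1), in the BAF250A table (top row) and the BRD9 table (bottom row), knockdown on the left of each panel and scrambled on the right, with lines at group means. Bmp4, Smad6 and Bambi lie far above scrambled cells in BAF250A knockdown cells, and Hey1 and Heyl do so in BRD9 knockdown cells.

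Genes of the BMP pathway, which is known to switch on Id genes, were followed from ligand to target. Over all genes tested, 11.2% rose and 17.5% fell with BAF250A, and 5.11% rose and 9.33% fell with BRD9. The same shares stand beside the receptor, antagonist and target counts below. Of the 6 BMP ligands tested, 3 rose with BAF250A and none fell. Bmp4 had 4932 and 4711 normalized counts in BAF250A knockdown cells, against 408 and 225 in scrambled cells, a 15.2-fold difference of the means, and the authors' deposited table gives 3.84 ± 0.46 (adjusted p = 4.16e-15, Wald test). Bmp4 had 216 and 450 in BRD9 knockdown cells, which overlapped the scrambled 435 and 230, and the difference between the knockdowns was 3.84 on the log2 scale (adjusted p = 4.66e-05, normal test). Bmp6 and Bmp5 also rose with BAF250A, by 3.37 and 2.68 in the authors' deposited table, at low mean counts of 34.6 and 24.2. With BRD9 0 of 6 ligands were called by the Wald test in the authors' deposited table, and 1 had an unadjusted p below 0.05.

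Among 8 BMP receptors, 3 rose with BAF250A in the authors' deposited table: Acvrl1 (ALK1) by 3.25, Bmpr1b by 1.89 and Acvr1 (ALK2) by 1.15. In the authors' deposited table for BRD9 these 3 stood at 0.08, 1.88 and 1.27 in the same order. The difference between the knockdowns passed for none of them. By the Wald test 0 of 8 receptors were called with BRD9 in the authors' deposited table, with 2 at an unadjusted p below 0.05. The 4 SMAD genes that carry the signal (Smad1, Smad5, Smad9 and Smad4) had 0 calls in both comparisons by the same test, with 1 at an unadjusted p below 0.05 for BAF250A and 0 for BRD9. Extracellular antagonists of BMP rose too, 3 of 8 with BAF250A and 3 of 8 with BRD9, and none fell. In the authors' deposited table these were Chrdl1 at 6.41, Bmper at 2.51 and Fstl1 at 1.51 for BAF250A. For BRD9 they were Chrdl1 at 4.36, Chrd (chordin) at 1.98 and Bmper at 1.67 in the authors' deposited table.

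Id2 and Id3 rose with BAF250A, whereas Id1, also a known BMP target, did not pass (-0.48 in the authors' deposited table). Whether the BMP genes had a part in the Id changes was not tested. Other BMP targets did not move one way. With BAF250A 3 of 7 tested rose and 2 fell, and with BRD9 1 rose. Smad6, an inhibitory SMAD that BMP itself induces, had 1264 and 1144 in BAF250A knockdown cells, against 83.8 and 103 in scrambled cells, a 12.9-fold difference. Its counts of 228 and 496 in BRD9 knockdown cells stood against 89.4 and 106 in scrambled cells, a 3.71-fold difference that also passed (adjusted p = 0.0165 in the authors' deposited table, Wald test). Bambi, a decoy receptor, had 202 and 254 in BAF250A knockdown cells, against 27.9 and 29.3 in scrambled cells. Its counts in BRD9 knockdown cells were 71.3 and 79.3, against 29.8 and 29.9 in scrambled cells, and it did not pass (adjusted p = 0.248 in the authors' deposited table, Wald test). Atoh8 rose by 1.23 with BAF250A, while the homeobox genes Msx2 and Dlx3 fell by 2.68 and 2.16 in the authors' deposited table.

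**Figure D5:**
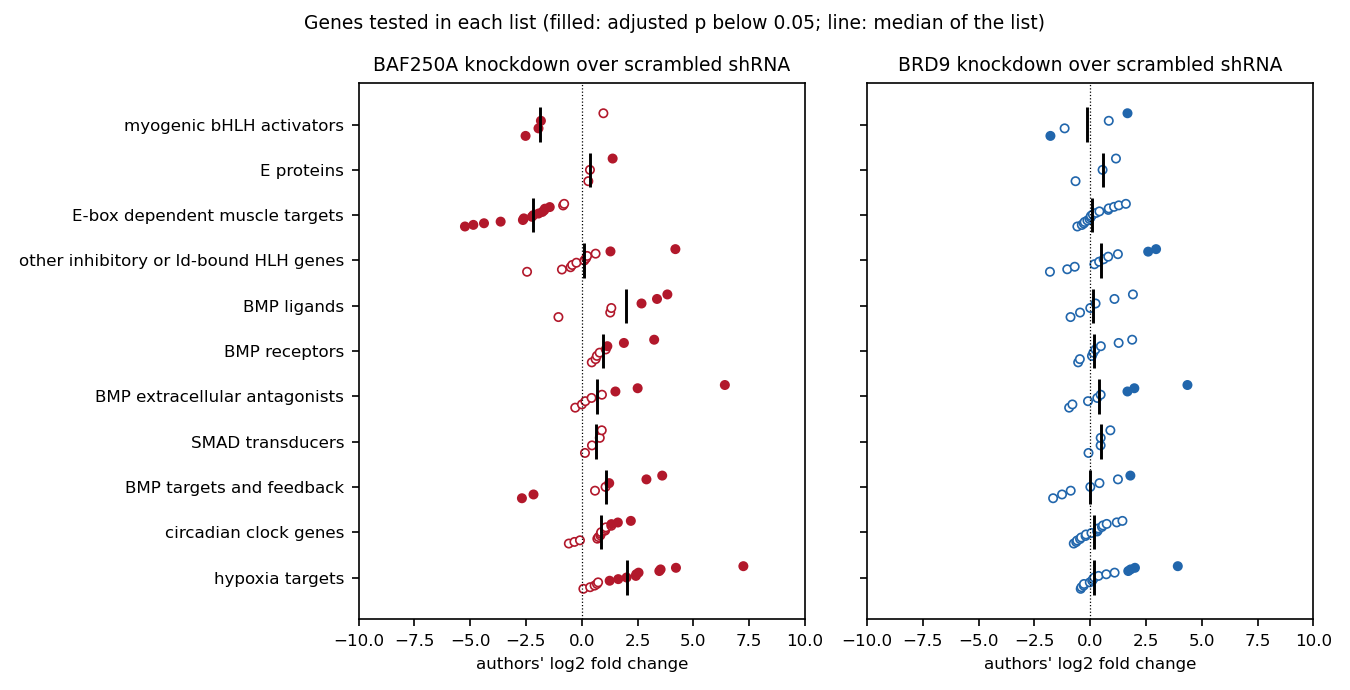
Log2 fold change in the authors' deposited tables of every tested gene of 11 lists, BAF250A knockdown on the left and BRD9 knockdown on the right; filled points have an adjusted p below 0.05 and the line is the list's median. With BAF250A the E-box targets lie below 0 and the called BMP ligands, receptors and antagonists and the hypoxia list lie above it. With BRD9 most points are open and near 0.

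Other inhibitory or Id-binding HLH genes changed in small numbers. Among all genes tested, 28.7% were called with BAF250A (11.2% higher) and 14.4% with BRD9 (5.11% higher). With BAF250A 2 of 11 tested rose and none fell in the authors' deposited table: Twist1 by 4.20, at a mean count of only 5.75, and the Myc antagonist Mxi1 by 1.29. With BRD9 the 2 of 10 that rose were Notch targets. Heyl had 3523 and 6481 in BRD9 knockdown cells, against 608 and 585 in scrambled cells, and Hey1 had 520 and 1306, against 146 and 130. The authors' deposited table gives 2.95 ± 0.51 for Heyl (adjusted p = 2.13e-07, Wald test) and 2.60 ± 0.57 for Hey1 (adjusted p = 8.51e-05, Wald test). In BAF250A knockdown cells Heyl had 328 and 279, against 570 and 571 in scrambled cells, and did not pass, and the difference of -3.84 between the knockdowns passed (adjusted p = 5.44e-06, normal test). Hey1 overlapped scrambled cells there, at 132 and 171 against 136 and 127.

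Bhlhe40 belongs to the clock and hypoxia circuits, and genes of both were counted. Their part in the Bhlhe40 change was not tested. Of 15 clock genes tested with BAF250A 3 rose and none fell: Npas2 by 2.20, Dbp by 1.62 and Per1 by 1.33 in the authors' deposited table. Over both directions a smaller share of this list was called than the 28.7% of all genes tested. All its calls were higher, beside 11.2% higher and 17.5% lower among all genes tested. Its median log2 fold change in the authors' deposited table was 0.87, beside -0.18 over all genes tested. With BRD9 0 of 16 were called by the Wald test in the authors' deposited table and 1 had an unadjusted p below 0.05. The hypoxia list holds targets together with Hif1a and Epas1, which encode regulators of that response. With BAF250A 10 of its 15 genes rose and none fell, with a median log2 fold change of 2.01 in the authors' deposited table. They were led by Adm (adrenomedullin) at 7.24, Epas1 (HIF2A) at 4.22, Bnip3 at 3.53 and Car9 (carbonic anhydrase) at 3.48 in the authors' deposited table. The 5 not called there were Vegfa (0.07), Ldha (0.37), Egln1 (0.58), Slc2a1 (0.68) and Ankrd37 (0.73). With BRD9 4 of 15 rose and none fell: Adm by 3.92, Bnip3 by 2.00, Car9 by 1.81 and Pdk1 by 1.70 in the authors' deposited table. The median of that list with BRD9 was 0.18, and 5.11% of all genes tested rose with BRD9.

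Cell type markers moved as well, and their part in the members' changes was not tested. These lists share genes with those above, so their counts are not separate observations. Ckm, Mymk and Myh3 also stand among the E-box targets, and Myf5 among the myogenic activators. Over all genes tested, 11.2% rose and 17.5% fell with BAF250A, and 5.11% rose and 9.33% fell with BRD9. All 8 myotube markers fell with BAF250A, while with BRD9 3 of 8 rose and none fell; the list's summed level, implied by the authors' means and fold changes, was 51330 in BAF250A knockdown cells, against 414588 in scrambled cells, and 411667 in BRD9 knockdown cells, against 431649. Smooth muscle genes, which myoblasts and fibroblasts also express, rose in 4 of 6 with BAF250A and 1 of 6 with BRD9, with implied sums of 431452 against 188284 and of 270522 against 195416. Of the 6 fibroblast markers tested, 2 rose and 1 fell with BAF250A and 1 rose and 1 fell with BRD9, with implied sums of 328329 against 85367 and of 262000 against 89640; Tcf21 was listed at 0. Undifferentiated myoblast and reserve cell markers fell in 2 of 8 with BAF250A, and with BRD9 1 rose (Pax7) and 1 fell (Myf5). Names of the lists that follow do not mean that such cells were present in this myoblast line. Neuronal markers fell in 2 of 3 tested with BAF250A, and 1 of 3 rose with BRD9. The endothelial marker Kdr fell with both knockdowns. Of the 3 macrophage markers tested, 1 rose and 1 fell with BAF250A and 1 fell with BRD9. Macrophage and endothelial lists summed to at most 222 normalized counts in every group, Adipoq and Snap25 were listed at 0, and adipocyte genes had 0 of 3 called by the Wald test in both comparisons, with 2 at an unadjusted p below 0.05 in each. In bulk RNA, fewer cells of a type and less RNA per cell cannot be told apart.

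For each member, the genes with the nearest pair of deposited log2 fold changes were named as a description, among 11377 genes with a mean count of at least 100 in both tables. Nearest to Msc was Cox8b, at -9.50 with BAF250A and -2.93 with BRD9 in the authors' deposited tables, at a distance of 0.88, followed by Wnt7b and H3c13. Id2 had Rasl12, Rps10 and Rps14 nearest, within 0.11. Id3 had Clybl, Layn and Pfkfb3, the last of which is on the hypoxia list, and Bhlhe40 had Zfp395, Tdrkh and Lhfp. Id1 had Ecd, Rbm15b and Rrp1b, Bhlhe41 had Stx12, Nsmaf and Ybx3, and Id4 was below the count minimum. Likeness here covers 2 comparisons that share their scrambled libraries.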

How the data were processed

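RNA sequencing of 6 libraries (3 groups of 2) was used through 2 comparison tables that the authors deposited. Tools named in the submitters' processing notes are DESeq2, RSEM, Bowtie, StringTie and HISAT, with the build mm10 and no roles or versions. Per the file headers, the authors give for each gene a mean normalized count (a signal averaged over 4 libraries), a log2 fold change with its standard error, a Wald score, a p-value and an adjusted p-value. The tables do not name the numerator. Positive was read as higher in the knockdown, because the pair of libraries with the same reads in both tables, the scrambled pair, was the lower one for positive values.

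Reads per library were worked out from the deposited means. All genes whose mean was under 10, 6262 for BAF250A and 6126 for BRD9, split into whole reads in 1 way within 2e-08, and 5739 of 5739 such genes in both tables had the same scrambled reads. For 20 genes named in the text, most of them with higher means, a set of reads was kept when exactly 1 candidate also matched both deposited log2 fold changes within 1e-05 under a refit of the authors' DESeq2 model. These are the 7 members, their partners except Myog, both targeted genes and 5 genes added after their fold changes were seen (Bmp4, Smad6, Bambi, Hey1 and Heyl). Normalized counts are these reads over the size factor, and means ± SD are over 2 libraries.

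Each knockdown was compared with scrambled shRNA by the authors' Wald test at an adjusted p below 0.05, since the deposited values are not counts of all genes and no count model of all genes could be fitted. The knockdowns were compared by the difference of log2 fold changes over the root of the summed squared errors. No set test was used. A gene of the lists is not reported here and stays out of their counts. The members and the gene lists were chosen with earlier results of these data known. Named list genes are the called ones, up to 4 per list and comparison by absolute log2 fold change. Promoters came from RefSeq (GRCm38.p6) and exons from GENCODE M21. Python 3.11.15, numpy 2.4.6, scipy 1.17.1, pandas 2.3.3 and numba 0.67.0 were used. Only the read recovery and the difference test were tried on simulated data. Those data were made with the same fit and standard errors that these steps use, so they do not check either. Simulated scrambled levels were set below those of the most abundant genes here.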

Additional observations from a re-analysis of the deposited data

Results flagged for a closer look

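The change of Msc differed between the knockdowns, by -7.36 log2 units (BAF250A minus BRD9; adjusted p = 1.44e-06, normal test). Both knockdown groups lay below scrambled cells, with 0 and 0 reads in BAF250A knockdown libraries, 66 and 215 in BRD9 knockdown libraries, and 824 and 1123 in scrambled libraries. It was the 1 member of 7 whose difference between knockdowns passed, and it passed as well with a Bonferroni adjustment.

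Among the other genes named, the same test of the difference also passed for these, in log2 units of BAF250A minus BRD9. Lower values with BAF250A were found for the muscle genes Myog (-2.77), Ckm (-4.66), Mymk (-4.82), Myh3 (-4.79), Tnni1 (-3.26), Myh8 (-7.45), Actn2 (-6.87), Myh1 (-3.94) and Cdh15 (-2.50). They were also found for Heyl (-3.84), the satellite cell factor Pax7 (-4.02) and 2 genes of the neuronal marker list, Tubb3 (-3.39) and Map2 (-5.42). Higher values with BAF250A were found for Bmp4 (3.84), the hypoxia list genes Adm (3.32) and Epas1 (4.51), and the smooth muscle gene Cnn1 (3.17).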

How the results depend on the processing

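The 4 BAF250A calls among the 7 members became 1 (Msc) under an empirical null that scales Wald scores by their own spread, and 3 under Bonferroni adjustment; leaving out 1 library at a time gave 3 to 4. The 2 BRD9 calls became 0 under the empirical null and 0 under Bonferroni adjustment, and leaving out 1 library gave 0 to 2. The 1 member that differed between the knockdowns became 2, with Id3 added, when the variance was halved. Over all genes the 4729 BAF250A calls became 1565 under Bonferroni adjustment and 693 under the empirical null, the 2483 BRD9 calls became 940 and 873, and the 414 calls of the difference became 1231 with halved variance, 271 at a mean count of at least 100 and 123 under Bonferroni adjustment. Adjusting without a filter on low values, over means of at least 100 or at 0.01, or centring on the median, left the number of members called as it was in every comparison where that alternative was run.

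Directions turned in uncalled genes alone. Leaving out 1 library at a time, the log2 fold change with BAF250A ranged from -0.183 to 1.62 for Id4, from -0.478 to 0.0873 for Bhlhe41, from -0.0718 to 0.998 for Tcf4 and from -0.00653 to 0.348 for Brd9. With BRD9 it ranged from -0.136 to 0.373 for Id1 (-0.0882 without scrambled library 1), from -0.765 to 1.30 for Id3, from -1.09 to 0.0130 for Tcf4 and from -0.574 to 0.430 for Arid1a. Mymk with BRD9 was 0.118 after centring and 0.0589 under the empirical null. The cause was not tested. These fits, chosen after seeing the data, held the authors' dispersions and prior and assumed that a lone library varies like the others. No paired analysis was possible because which recovered library carries the letter A or B is unknown. A count test with another normalization was not run, since counts of all genes were not used here. With 2 libraries per group, depth limits Id4 most.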
